A study of Mus musculus with 7 samples.

Results

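Cyclin-dependent kinase (CDK) inhibitor genes were read in splenic Tregs of aged and young mice. The group holds the 7 genes of the INK4 family (Cdkn2a, Cdkn2b, Cdkn2c and Cdkn2d) and of the CIP/KIP family (Cdkn1a, Cdkn1b and Cdkn1c), chosen by symbol from 47729 genes counted, and each of the 7 was found. RNA came from CD4+CD25+ splenocytes of male C57BL/6 mice of genotype WT, isolated with magnetic beads, with 3 aged mice (18 months) and 4 young mice (8 weeks) as biological replicates by the sample labels. The study's methods give the young mice a slightly higher age, and the labels name no treatment for either group. The beads select CD4 and CD25 at the surface and not the nuclear factor Foxp3. Its transcript was at 447 to 622 CPM in aged and 394 to 518 CPM in young libraries, so Treg transcripts were present in each. CPM are gene counts scaled to the effective size of the library. Here Tregs stands for these isolates, which also held transcripts of other cell types.

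Progress through the cell cycle is driven by kinases that are active only when bound to a cyclin. INK4 proteins bind CDK4 and CDK6 and keep them from cyclin D, whereas CIP/KIP proteins bind assembled cyclin-CDK complexes, above all those of cyclin E and cyclin A. Both families leave the retinoblastoma proteins in the form that holds E2F factors back from S phase genes. Cdkn2a is an unusual gene with a pair of products. One is p16INK4a, and the other, p19ARF, is read from the same exon in another frame and stabilizes p53 by binding MDM2. Transcripts of p16INK4a and p21 (from Cdkn1a) are widely used as markers of senescence, a lasting arrest of the cell cycle, and p27 (from Cdkn1b) is known for holding resting lymphocytes in quiescence.

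Cdkn2a (ENSMUSG00000044303) lies on the minus strand of chromosome 4 at chr4:89274471-89294653 of GRCm38. Its p19ARF transcript starts in an exon of 320 bases (chr4:89294334-89294653), and its p16INK4a transcript starts 12461 bases further on in an exon of 207 bases (chr4:89281986-89282192). Of the 1172 exon bases of the gene, 575 (49.1%) belong to both transcripts, and 317 coding bases of the second exon (chr4:89276645-89276985) are read in both frames, 1 base apart. The deposited value is 1 count for the whole gene, so reads of p16INK4a and of p19ARF cannot be told apart here. Cdkn2b (ENSMUSG00000073802), which encodes p15INK4b, lies 11645 bases away on the same strand at chr4:89306299-89311039. A read that fits both genes equally could be lost or misplaced in counting. In the stretch of 120 coding bases where the genes are most alike, 105 bases (87.5%) are equal in both. The longest run of equal bases was 23, and no stretch of 50 bases of either gene was found in a transcript of any other gene in the annotation used here (GENCODE M21). The other pairs of INK4 genes were equal at 51.7% to 61.7% of the bases in their best stretch.

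The promoters of these genes are shown because Cdkn2a and Cdkn2b were each counted more often in aged Tregs, with no separate value for the start sites of Cdkn2a. The RefSeq windows of 250 bases before the start sites (GRCm38.p6, minus strand) are printed up to the first annotated exon base. Those of p19ARF (chr4:89294654-89294869), p16INK4a (chr4:89282193-89282442) and Cdkn2b (chr4:89311040-89311282) read as follows, with capitals for a GC box, an E2F site or a cAMP response element.
p19ARF: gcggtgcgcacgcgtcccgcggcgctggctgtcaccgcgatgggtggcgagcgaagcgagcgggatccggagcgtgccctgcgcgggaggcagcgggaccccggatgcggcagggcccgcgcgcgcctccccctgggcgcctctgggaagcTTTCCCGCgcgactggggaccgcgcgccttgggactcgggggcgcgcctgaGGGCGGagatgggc
p16INK4a: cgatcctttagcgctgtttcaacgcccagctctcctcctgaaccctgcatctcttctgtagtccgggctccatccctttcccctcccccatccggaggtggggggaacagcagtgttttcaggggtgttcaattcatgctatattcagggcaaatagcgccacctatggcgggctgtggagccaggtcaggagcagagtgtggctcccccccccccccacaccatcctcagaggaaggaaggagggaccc
Cdkn2b: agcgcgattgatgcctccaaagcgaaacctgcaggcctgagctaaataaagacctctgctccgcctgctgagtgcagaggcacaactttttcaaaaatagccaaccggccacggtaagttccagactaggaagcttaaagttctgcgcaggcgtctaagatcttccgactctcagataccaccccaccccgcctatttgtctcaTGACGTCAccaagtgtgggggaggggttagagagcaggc
Motifs were searched by their letters on both strands, namely GGGCGG for the GC box, TTTCCCGC for the E2F site and TGACGTCA for the cAMP response element. Over its full 250 bases the p19ARF window held 40 CpG dinucleotides, 2 GC boxes and 1 E2F site. The p16INK4a window held 7 CpG and none of these letters, and the Cdkn2b window held 12 CpG and 1 cAMP response element. Among 32841 RefSeq windows of that length the median was 6 CpG, and 32.7% held a GC box, 0.895% this E2F site and 1.55% a cAMP response element. None of the 6 windows of other members in that table held this E2F site or a cAMP response element. A second E2F form (TTTGGCGC, in 0.417% of windows), the CCAAT box (CCAAT, 33.9%), the TATA box (TATAAA, 12.4%), the E-box (CACGTG, 6.02%), the AP-1 element (TGANTCA, 6.75%), the FoxO site (GTAAACA, 3.17%) and the SMAD box (GTCTAGAC, 0.167%) were searched in the same way. Their letters were not in the 3 windows of Cdkn2a and Cdkn2b, and the matches that were found did not overlap each other.

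Cdkn2a and Cdkn2b had the largest differences of the family, and both were higher in the aged Treg isolates. Cdkn2a was read 18, 13 and 22 times in aged replicates 1 to 3, and 3, 5, 3 and 3 times in young replicates 1 to 4. Scaled to library size these were 1.57, 1.31 and 2.06 CPM against 0.262, 0.350, 0.237 and 0.215 CPM. Every aged library was above every young library. Aged libraries averaged 1.65 ± 0.380 CPM (SD, n = 3) and young ones 0.266 ± 0.0594 CPM (SD, n = 4). On the log2 scale the difference was 2.58 with a standard error of 0.351 and an adjusted p of 0.00278 (quasi-likelihood test of edgeR over 13904 genes). As a fold this was 5.98, with a 95% interval of 3.43 to 10.4. The summed 53 aged and 14 young counts gave a ratio of 6.18 with an exact 95% interval of 3.38 to 12.1, which covers counting error only.

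Cdkn2b was read 13, 14 and 25 times in aged and 1, 4, 3 and 7 times in young libraries. These were 1.14, 1.41 and 2.34 CPM against 0.0874, 0.280, 0.237 and 0.502 CPM, again without overlap, and aged replicate 3 was the highest of all. Aged libraries averaged 1.63 ± 0.631 CPM (SD, n = 3) and young ones 0.277 ± 0.171 CPM (SD, n = 4). The log2 fold change was 2.48 with a standard error of 0.492 (adjusted p = 0.0131, edgeR), a 5.56-fold difference with a 95% interval of 2.55 to 12.1. Without aged replicate 3 it was 2.12 and no longer passed the threshold (adjusted p = 0.0566). The summed counts were 52 and 15, a ratio of 5.66 with an exact 95% counting interval of 3.14 to 10.8. Taken as 1 locus, Cdkn2a and Cdkn2b together held 31, 27 and 47 counts in aged libraries and 4, 9, 6 and 10 in young ones.

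Both genes were rare, and with 10734234 to 13649310 gene counts per library the depth bears on every value of theirs. The detection limit was set at 3 counts, which were 0.21 to 0.302 CPM, and 3 of the 4 young libraries held Cdkn2a at exactly that count. For Cdkn2b young replicate 1 was below the limit with 1 count and young replicate 3 was at it, so the folds of both genes rest on young values near the limit. The filter on low counts asked for 0.831 CPM in at least 3 libraries, which Cdkn2a and Cdkn2b reached in 3 of 3 aged and 0 of 4 young libraries. They were tested only because of the group in which they are high, while the other 5 members reached it in all 7 libraries. With every gene tested that had a count, the adjusted p-values of edgeR's test were 0.00315 for Cdkn2a and 0.0107 for Cdkn2b. Of all genes tested, 16.7% were called at an adjusted p under 0.05, 9.8% higher and 6.94% lower in aged Tregs, and 15.5% had every aged value above every young value against 14.4% with every aged value below. The log2 fold changes of Cdkn2a and Cdkn2b ranked at 130 and 143 among the 13904.

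Most neighbours of the locus were hardly read. Within 200 kb on either side of the stretch from Cdkn2a to Cdkn2b, 13 genes are annotated in whole or in part, both members included. Of these, 8 had a count in any library and 3 were tested. The only tested gene besides the members was Mtap, which encodes the methionine salvage enzyme methylthioadenosine phosphorylase. It was read 441, 280 and 383 times in aged and 430, 550, 439 and 458 times in young libraries, and the groups overlapped. Its log2 fold change was -0.07 (95% interval -0.36 to 0.22, adjusted p = 0.752 from edgeR's test). The remaining neighbours with a count had at most 1 in any library.

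The other INK4 genes were far more abundant and did not pass the test. Cdkn2c (ENSMUSG00000028551, chr4:109660876-109667189, minus strand) encodes p18INK4c. It was at 18.5, 25.0 and 20.6 CPM in aged and 18.1, 15.9, 24.3 and 24.6 CPM in young libraries, so that the ranges overlapped almost fully. Its log2 fold change was 0.04 ± 0.189 (SE, 95% interval -0.39 to 0.47, adjusted p = 0.905, edgeR), and its sign turned under 5 of 18 alternatives. Cdkn2d (ENSMUSG00000096472, chr9:21288410-21291407, minus strand) encodes p19INK4d, a protein unrelated to p19ARF despite its name. It was at 46.5, 57.4 and 50.3 CPM in aged and 61.4, 41.3, 61.0 and 79.6 CPM in young libraries, with 3 of the 4 young libraries above all aged ones and young replicate 2 below them. The log2 fold change of -0.24 ± 0.198 (SE, 95% interval -0.69 to 0.21, adjusted p = 0.439, edgeR) was negative in all 18 alternatives and called in 0 of them. Without young replicate 2 it was -0.39 (unadjusted p = 0.0232, adjusted p = 0.101, edgeR), and without young replicate 4 it was -0.085 (adjusted p = 0.793).

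Among CIP/KIP genes, Cdkn1a (ENSMUSG00000023067, chr17:29090976-29100727, plus strand) differed. It encodes p21, a p53 target. It was at 6.29, 4.93 and 5.71 CPM in aged and 3.06, 3.71, 3.47 and 3.37 CPM in young libraries, from 72, 49 and 61 against 35, 53, 44 and 47 counts. The groups did not overlap. Aged libraries averaged 5.64 ± 0.680 CPM (SD, n = 3) and young ones 3.40 ± 0.272 CPM (SD, n = 4), a 1.66-fold difference (95% interval 1.24 to 2.22). The log2 fold change was 0.73 with a standard error of 0.185 (adjusted p = 0.0317, edgeR). With any single library left out it was 0.64 to 0.81, but the adjusted p ran from 0.0396 to 0.0817 and passed in only 2 of the 7 fits, those without aged replicate 2 or young replicate 2. Of its stretches of 50 bases, 8.49% also occur in other genes, so reads from that part may be missing.

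Cdkn1b (ENSMUSG00000003031, chr6:134920401-134925513, plus strand), the gene of p27, was the most abundant member. It was at 160.5, 263.5 and 209.1 CPM in aged and 227.9, 188.7, 176.7 and 180.3 CPM in young libraries. Aged replicates 1 and 2 were the lowest and the highest of the 7 libraries, and the young values lay between them. Its log2 fold change was 0.13 ± 0.173 (SE, 95% interval -0.27 to 0.52, adjusted p = 0.658, edgeR). Cdkn1c (ENSMUSG00000037664, chr7:143458339-143461050, minus strand), the gene of p57 and known as an imprinted gene, was read 12, 11 and 12 times in aged and 12, 14, 15 and 23 times in young libraries. Its groups overlapped, with a log2 fold change of -0.16 ± 0.302 (SE, 95% interval -0.85 to 0.53, adjusted p = 0.765, edgeR). Gm44732, a gene on 30.7% of its exon bases, was counted 0 times in all libraries, so Cdkn1c reads on the shared bases may not have been assigned to either gene. For Cdkn2c, Cdkn2d, Cdkn1b and Cdkn1c these intervals are what the data allow, and they do not show that the genes were equal.

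**Figure D1:**
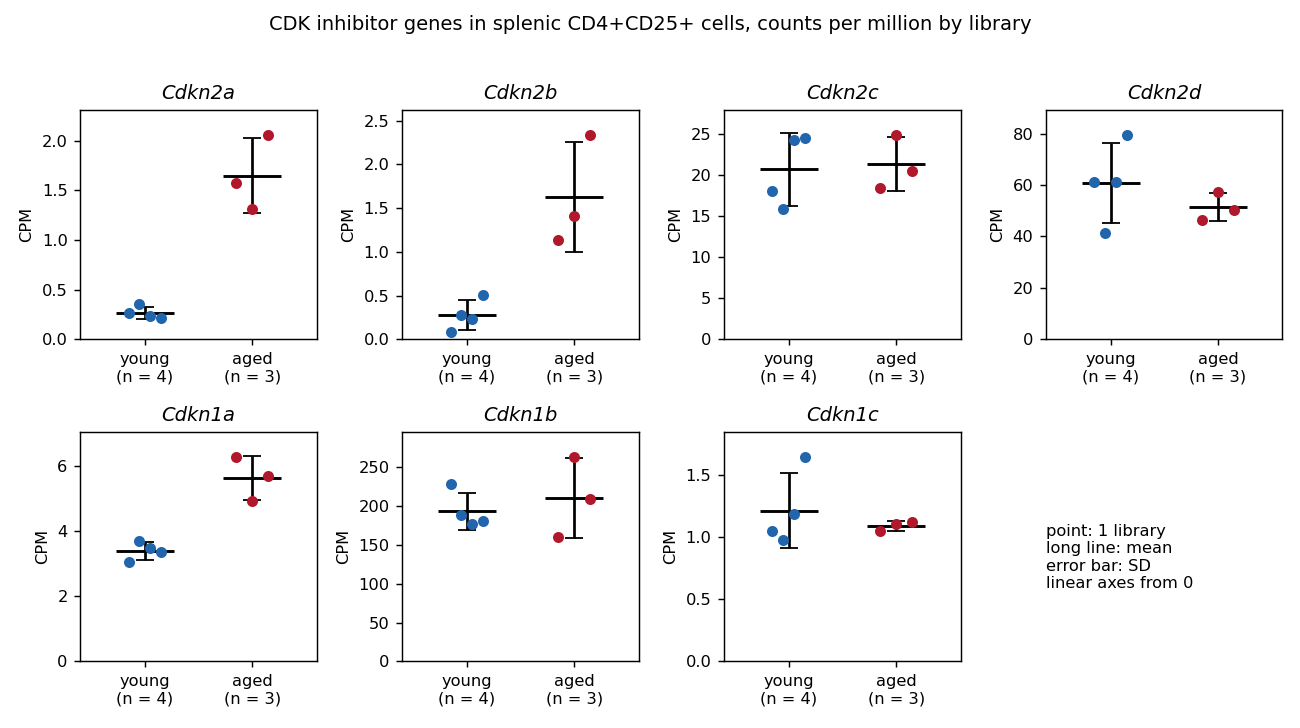
CPM (linear axes from 0) of each CDK inhibitor gene in each library, with points for libraries, lines for means and bars for the SD (young n = 4, aged n = 3). All aged points of Cdkn2a (1.31 to 2.06 CPM), Cdkn2b (1.14 to 2.34 CPM) and Cdkn1a (4.93 to 6.29 CPM) lie above all young points, and those of the other 4 genes overlap.

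The plot of fold changes with their intervals sets the 7 genes side by side. Only Cdkn2a, Cdkn2b and Cdkn1a had intervals above 0, and those of the other 4 genes crossed it.

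**Figure D2:**
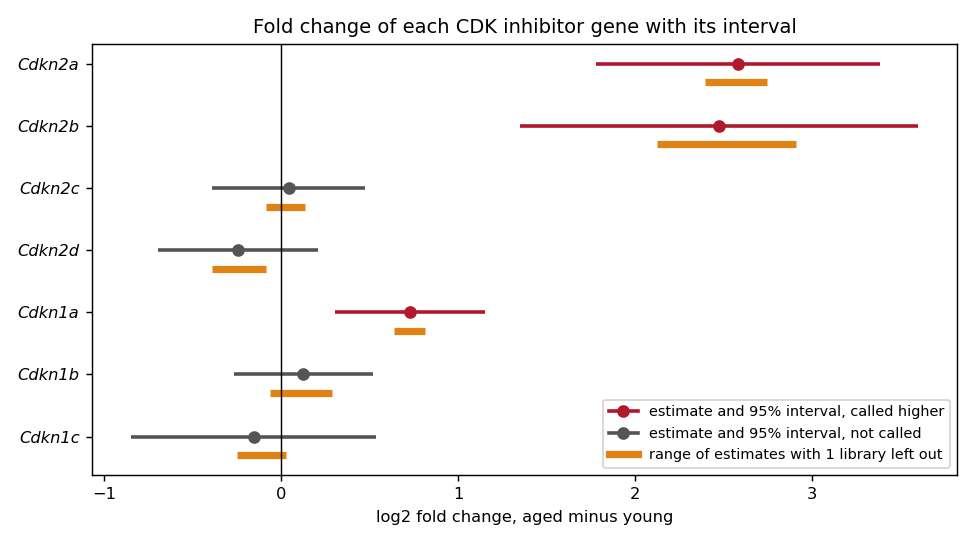
Log2 fold change (aged minus young) of each CDK inhibitor gene, with a point and line for the estimate and 95% interval of edgeR's test and an orange bar for the range of estimates with each library left out in turn. The orange bars of Cdkn2a (2.39 to 2.75), Cdkn2b (2.12 to 2.91) and Cdkn1a (0.64 to 0.81) stay above 0, and those of Cdkn2c, Cdkn1b and Cdkn1c cross it.

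To compare levels between genes, CPM were divided by the length of all exon bases of the gene (the union over its transcripts) in kilobases. In young Tregs the order was Cdkn1b (42.5 CPM per kilobase), Cdkn2d (38.6), Cdkn2c (7.72), Cdkn1a (0.958), Cdkn1c (0.596), Cdkn2a (0.227) and Cdkn2b (0.199). The libraries of Cdkn1b and Cdkn2d overlapped in this order, as did those of Cdkn2a and Cdkn2b, and the other neighbours did not. In aged Tregs the first 4 places were the same, at 46.4, 32.7, 7.95 and 1.59 CPM per kilobase. Cdkn2a (1.41) and Cdkn2b (1.17) now stood above Cdkn1c (0.536), and the libraries of Cdkn1a, Cdkn2a and Cdkn2b overlapped from each to the next. Divided by the longest transcript instead, Cdkn2d (42.7) and Cdkn1b (42.5) changed places in young Tregs, the aged mean of Cdkn1a was 2.71 CPM per kilobase, and its aged libraries (2.37 to 3.02) no longer overlapped those of Cdkn2a (1.46 to 2.30). At both ages the level of Cdkn2a and Cdkn2b per kilobase stayed below those of Cdkn1b, Cdkn2d and Cdkn2c in every library.

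**Figure D3:**
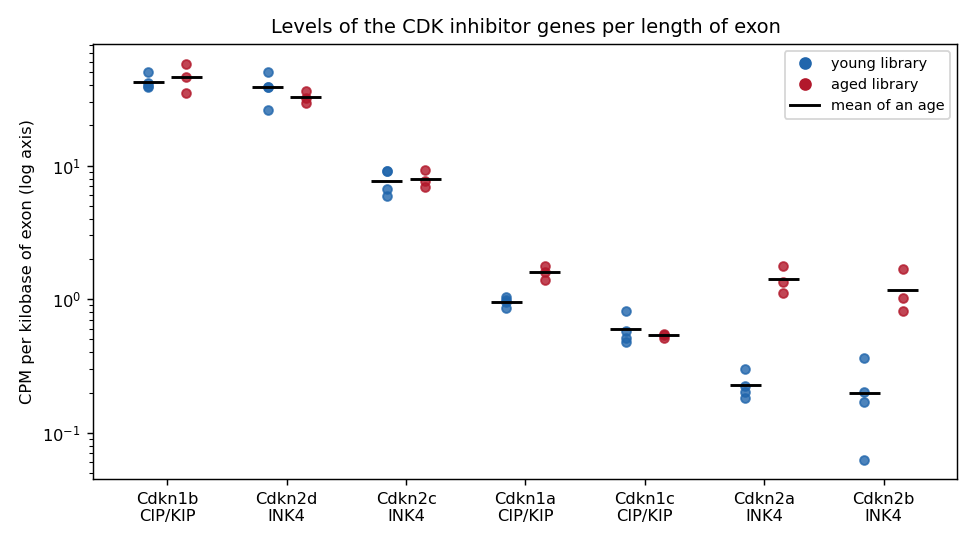
CPM per kilobase of exon (union of transcripts, log axis) of the 7 genes in order of their young means, with points for libraries and lines for means of young (n = 4) and aged (n = 3) Tregs. Cdkn2a and Cdkn2b move from 0.227 and 0.199 to 1.41 and 1.17 CPM per kilobase, still below Cdkn2c at 7.95.

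The summed INK4 level was 43.2 ± 4.66 CPM per kilobase (SD, n = 3) in aged and 46.8 ± 11.3 (SD, n = 4) in young Tregs. The summed CIP/KIP level was 48.5 ± 11.2 in aged and 44.0 ± 5.05 CPM per kilobase in young Tregs, and both sums overlapped between the ages. Of the sum over all 7 genes, Cdkn2a made up 1.58% ± 0.473 (SD, n = 3) in aged and 0.258% ± 0.0941 (SD, n = 4) in young Tregs, and Cdkn2b 1.29% ± 0.489 against 0.220% ± 0.123. Cdkn1b and Cdkn2d together held the largest shares at both ages, with Cdkn1b at 50.1% and Cdkn2d at 35.9% in aged Tregs.

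The patterns of the members over the 7 libraries were compared by the root mean square difference of log2 CPM, each gene centred on its mean. Cdkn2a and Cdkn2b were 0.46 apart, the smallest distance of either to a member, and Cdkn2a was 0.69 from Cdkn1a and 1.20 from Cdkn2d. Among genes with a mean log2 CPM of at least 1, those nearest to Cdkn2a were Nlrp1b, an inflammasome sensor, Cpne7, and the immunoglobulin segment Ighj1 (0.178 to 0.182). Those nearest to Cdkn2b were Mir155hg, the host gene of the microRNA miR-155, Casp1, which encodes the protease that matures interleukin-1 beta, and Pld2 (0.275 to 0.299). Casp1 was at 77.6, 96.9 and 108.3 CPM in aged and 16.2, 22.9, 19.6 and 23.5 CPM in young libraries, with the highest level of Casp1 in the same library as that of Cdkn2b. Nearest to Cdkn1a were Fdxacb1, the interleukin-12 receptor gene Il12rb1 and the scramblase gene Plscr1 (0.066 to 0.073). These likenesses describe the 7 libraries only, and genes with a similar step between the ages come out near each other by this measure.

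The kinases that INK4 proteins bind were not called. Cdk4 was at 143.3, 135.0 and 127.2 CPM in aged and 121.0, 150.9, 144.9 and 136.2 CPM in young libraries, a log2 fold change of -0.03 (95% interval -0.27 to 0.20, adjusted p = 0.865, edgeR). For Cdk6 it was 0.20 (adjusted p = 0.476) and for the cyclin gene Ccnd3 0.14 (adjusted p = 0.455, edgeR's test). The other D cyclins were lower in every aged library than in every young one without a call. Ccnd2 was at 212 to 288 CPM in aged and 293 to 345 CPM in young libraries (log2 fold change -0.41, adjusted p = 0.0725), and Ccnd1 was rare (-0.81, adjusted p = 0.0507, edgeR). Of the 5 genes of this list, 2 had an unadjusted p under 0.05, as had 4540 of the 13904 genes tested in all, the background of each such count in the lists that follow. In this list edgeR called 0, DESeq2 2 lower, limma-trend 1 and limma voom 0. Over all genes tested edgeR called 9.8% higher and 6.94% lower, and DESeq2 1550 higher and 1360 lower of 16543. Limma voom called 1306 and 977 and limma-trend 1327 and 1043 of 13904. These are the background of the calls by each tool in the lists that follow.

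The targets of CIP/KIP proteins were not called either. Of 7 genes of cyclin E, A and B and their kinases, 0 were called by edgeR, DESeq2 or the limma fits, and 0 had an unadjusted p under 0.05. Over all genes tested edgeR called 16.7%, DESeq2 2910 of 16543, and limma voom 2283 and limma-trend 2370 of 13904. Cdk2 averaged 48.8 ± 3.78 CPM in aged (SD, n = 3) and 56.0 ± 5.77 CPM in young Tregs (SD, n = 4) (log2 fold change -0.20, adjusted p = 0.244, edgeR). Of 21 proliferation genes 0 were called by edgeR, DESeq2 or the limma fits, with 0 at an unadjusted p under 0.05. Their log2 fold changes ran from -0.34 to 0.41 around a median of 0.01, against 0.02 over all genes tested. Mki67, which encodes the proliferation marker Ki-67, was at 506, 737 and 439 CPM in aged and 858, 259, 792 and 939 CPM in young libraries, a log2 fold change of -0.34 (95% interval -1.25 to 0.57, adjusted p = 0.594, edgeR) with young replicate 2 far below the other young ones.

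Between kinases and cell cycle genes stand the regulators of both. Of 8 enzymes that activate or block CDKs edgeR called 0, with 2 at an unadjusted p under 0.05, and DESeq2 and the limma fits called 0. Of 18 genes of retinoblastoma proteins, E2F factors and the DREAM complex edgeR called 0, with 2 at an unadjusted p under 0.05, and DESeq2 and both limma fits called 1 lower. Of 11 genes for the degradation of p27 and p21, Skp2 among them, 0 were called by any of these tools and 0 had an unadjusted p under 0.05. On the side of p19ARF and p21, Trp53, which encodes p53, had a log2 fold change of -0.16 (adjusted p = 0.335) and Mdm2 one of -0.06 (adjusted p = 0.679, edgeR). The 6 genes of that axis had 0 calls in edgeR, with 2 at an unadjusted p under 0.05, while DESeq2 called 1 higher and 1 lower, limma voom 1 higher and limma-trend 0. The calls of these lists stand beside 9.8% higher and 6.94% lower of all genes in edgeR. In DESeq2 these were 1550 and 1360 of 16543, in limma voom 1306 and 977 and in limma-trend 1327 and 1043 of 13904.

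Of 15 transcription factors known to act on CDK inhibitor genes, 4 were lower and 0 higher in aged Tregs, beside 6.94% lower and 9.8% higher of all genes tested. The median log2 fold change was -0.34, against 0.02 over all genes. Both limma fits also called 4 lower and 0 higher, DESeq2 6 and 0, and 8 had an unadjusted p under 0.05 in edgeR. Foxo1, a factor known to act on Cdkn1b, fell to 179 ± 11.6 CPM in aged Tregs (SD, n = 3) against 261 ± 25.1 CPM in young ones (SD, n = 4) (log2 fold change -0.55, adjusted p = 0.014, edgeR). Ets1, a factor known to act on Cdkn2a, had a log2 fold change of -0.57 (adjusted p = 0.0398), Smad2, which carries TGF-beta signals to Cdkn2b, one of -0.49 (adjusted p = 0.0293), and Myc, a repressor of Cdkn2b and Cdkn1a, one of -0.71 (adjusted p = 0.0189, edgeR). The calls differed in stability. With each library left out in turn, Foxo1 was called in 6 of 7 fits, Myc in 3, and Ets1 and Smad2 in 1 each, and without aged replicate 3 edgeR called 0 of the 15, when its calls over all genes were also fewer (814 higher and 448 lower of 14183, against 1362 and 965 of 13904 with every library).

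Polycomb proteins, which are known to keep the Cdkn2a and Cdkn2b locus silent, held calls in both directions. Of 19 genes 3 were higher and 1 lower, beside 9.8% and 6.94% of all genes tested, and 12 had an unadjusted p under 0.05. Pcgf2, a subunit of the first polycomb complex also called Mel18, was at 10.7, 17.9 and 17.1 CPM in aged and 3.32, 3.15, 2.37 and 3.73 CPM in young libraries, without overlap. Its log2 fold change of 2.27 ± 0.237 (SE, adjusted p = 0.00115, edgeR) was called in all 18 alternatives. The chromobox gene Cbx7 was higher (0.68, adjusted p = 0.00684, edgeR) and Cbx2, of the same family, lower (-0.69, adjusted p = 0.0188, edgeR). With each library left out in turn, Cbx7 was called in 7 of 7 fits and Cbx2 in 4. Without aged replicate 1, 5 genes of the list were higher and 5 lower, beside 1603 and 1455 of 14229 over all genes. Without aged replicate 3, 3 were higher and 0 lower, beside 814 and 448 of 14183.

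Senescence markers of the nucleus and lysosome held 0 higher and 2 lower genes of 10 in edgeR, DESeq2 and both limma fits, beside 9.8% higher and 6.94% lower of all genes tested, and 4 had an unadjusted p under 0.05 in edgeR. Glb1, the gene of lysosomal beta-galactosidase whose activity is stained as a mark of senescent cells, fell to 33.8 ± 2.15 CPM in aged Tregs (SD, n = 3) against 51.8 ± 4.88 CPM in young ones (SD, n = 4) (log2 fold change -0.61, adjusted p = 0.00735, edgeR). H2afy, which encodes the histone variant macroH2A, fell as well (-0.45, adjusted p = 0.0169). Lmnb1, the lamin gene whose loss marks senescence, was not called (-0.26, adjusted p = 0.261). Of 7 surface receptors of differentiated T cells 6 were tested, and 0 were higher and 1 lower in edgeR, DESeq2 and both limma fits, with an unadjusted p under 0.05 for 3 in edgeR.

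Genes of the senescence-associated secretory phenotype, the cytokines and proteases that senescent cells release, held 13 calls. Of 38 listed, 26 were tested, 11 were higher and 2 lower, beside 9.8% and 6.94% of all genes tested, around a median log2 fold change of 0.80 against 0.02. Markers of other cells moved beside this list. Their summed aged mean over the young one was 4.77 for neutrophils, with overlapping sums, 2.1 for platelets and 2.34 for stromal and endothelial cells. It was 1.24 for plasma cells and 1.33 for erythroid cells, with overlapping sums. Lower ratios were those of NK cells (0.653), B cells (0.754), dendritic cells (0.809), CD8 T cells (0.838) and monocytes and macrophages (0.907). Of these only the NK cell sums did not overlap. The part of these cells in the list was not tested. The largest differences were those of Spp1 (5.86, adjusted p = 0.000889), Il1b (3.23, adjusted p = 0.0011), Cxcl10 (2.49, adjusted p = 0.0075) and Areg (2.05, adjusted p = 0.0176, edgeR). Spp1, the gene of osteopontin, was read 249, 92 and 400 times in aged and 8, 4, 2 and 6 times in young libraries. All of its young values were under the filter on low counts, so it was tested only because of the group in which it is high. Areg, the gene of amphiregulin, reached the filter in 3 of 3 aged and 2 of 4 young libraries, and it too passed through its aged values. Igfbp4 (-1.73, adjusted p = 0.0084) and Tgfb1 (-0.73, adjusted p = 0.00241) were lower. DESeq2 called 14 higher of 31 tested, limma voom 12 and limma-trend 11 of 26, each with 2 lower. Over all genes DESeq2 called 1550 higher and 1360 lower of 16543, limma voom 1306 and 977 and limma-trend 1327 and 1043 of 13904. Without aged replicate 1, which held the most neutrophil transcripts, edgeR called 11 higher and 2 lower of 27, beside 1603 and 1455 of 14229 over all genes. Without aged replicate 3 it called 8 and 2 of 26, beside 814 and 448 of 14183. Il6, the best known gene of the list, was under the filter on low counts at both ages.

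**Figure D4:**
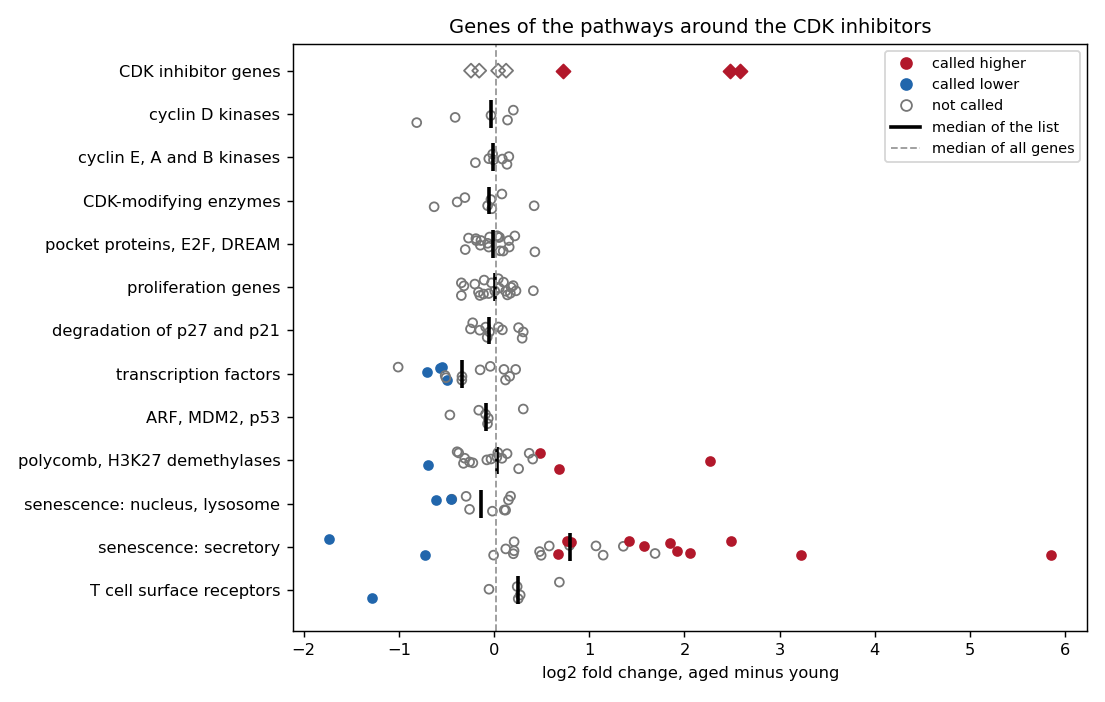
Log2 fold change (aged minus young) of each tested gene in the 12 lists around the CDK inhibitors, with filled points for called genes, a black line for the median of a list and a dashed line for that of all genes (0.02). Calls are absent from the kinase and proliferation lists, and most of the 11 called higher in the secretory list lie to the right of Cdkn1a.

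The isolated cells held transcripts of other cell types, some of which moved with age beside Cdkn2a and Cdkn2b. The counts of called markers stand beside 9.8% higher and 6.94% lower of all genes tested, which became 1603 higher and 1455 lower of 14229 without aged replicate 1 and 814 and 448 of 14183 without aged replicate 3. The 6 neutrophil markers summed to 4406, 1634 and 610 CPM in aged and 228 to 802 CPM in young libraries, so the sums overlapped. Of these 6 markers edgeR called 3 higher, 1 without aged replicate 1 and 5 without aged replicate 3. The 4 platelet markers summed to 18.8, 29.3 and 39.4 CPM in aged and 8.13 to 16.8 CPM in young libraries (1 of 4 called higher). The 5 plasma cell markers summed to 569, 882 and 1146 CPM in aged and 228 to 1841 CPM in young libraries. Aged replicate 3, the library with the most Cdkn2a and Cdkn2b, had the fewest neutrophil transcripts of the 3 aged libraries and the most platelet, plasma cell and B cell transcripts, and the aged libraries stood in the same order for Cdkn2b as for platelet, plasma cell and B cell markers. Young replicate 2, with the most plasma cell transcripts of all 7 libraries, held 4 counts of Cdkn2b, and it was the highest young library for Cdkn2a (0.350 CPM) and Cdkn1a (3.71 CPM). The 4 stromal and endothelial markers summed to 23.9, 32.0 and 10.9 CPM in aged and 8.13 to 10.8 CPM in young libraries (1 of 4 called higher). The 3 NK cell markers summed to 10.4 to 14.2 CPM in aged and 15.7 to 22.7 CPM in young libraries. Of these 3 markers 1 (Klrb1c) was called lower, and the groups of Ncr1 and Klre1 overlapped without a call. Of 7 monocyte and macrophage markers 2 were called lower, with overlapping sums. Without aged replicate 3, 0 platelet, 3 stromal and endothelial and 0 NK cell markers were called by edgeR. Erythroid markers summed to 12690 CPM in aged replicate 1 and 12380 CPM in young replicate 2, and to 59930 to 156900 CPM in the rest. Cdkn1b was lowest in aged replicate 1 and Cdkn2d in young replicate 2, and a link to these sums was not tested. Sums of Treg, B, plasma, dendritic, CD8 T and erythroid markers overlapped between the ages, and no marker of any list was at 0 in all libraries. Of these 6 lists, edgeR called 1 of 7 Treg markers (Cd3e) and 1 of 5 dendritic markers higher, and 1 of 5 dendritic markers lower. It called 0 of the B, plasma, CD8 T and erythroid markers. An unadjusted p under 0.05 was found for 6 Treg, 3 dendritic and 2 B cell markers and 1 plasma cell marker. Of the 7 Treg markers 5 had a positive log2 fold change. It was negative for Il2ra, the gene of CD25 (-0.61, adjusted p = 0.0588), and for Cd4 (-0.30, adjusted p = 0.117, edgeR). DESeq2 called 2 Treg, 2 B cell and 2 dendritic markers lower and 1 Treg, 1 plasma cell and 1 dendritic marker higher. Each limma fit called 1 Treg, 1 B cell and 1 dendritic marker lower and 1 Treg and 1 dendritic marker higher. Mitochondrial genes took 5.08% to 10.7% of the counts in aged and 2.63% to 3.23% in young libraries. The part of each of these in the Cdkn2a, Cdkn2b and Cdkn1a values was not tested, and in bulk RNA a larger share of cells with a transcript and more transcript per cell cannot be told apart. Without aged replicate 1 the log2 fold changes were 2.61 for Cdkn2a (adjusted p = 0.00648), 2.68 for Cdkn2b (adjusted p = 0.0132) and 0.64 for Cdkn1a (adjusted p = 0.0625, edgeR's test).

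**Figure D5:**
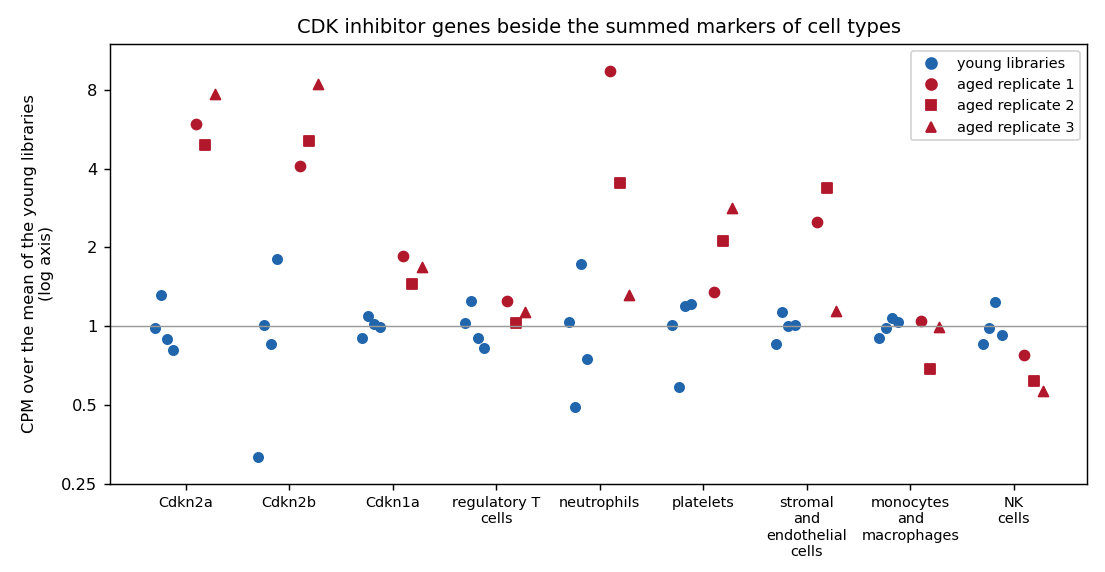
CPM of 3 CDK inhibitor genes and summed CPM of 6 marker lists in each library, divided by the mean of the young libraries (log axis), with a symbol for each aged replicate. Aged replicate 3 (triangle) is highest for Cdkn2a and Cdkn2b and, among aged libraries, lowest for neutrophil and highest for platelet markers.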

How the data were processed

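Total RNA of the 7 isolates was reverse transcribed and amplified with a SMART-Seq v4 kit, which adds no molecular identifiers. The authors deposited raw read counts per Ensembl gene for each library, in the layout of HTSeq-count (union mode, no strand), so reads of overlapping genes cannot be told apart by strand. The lines of reads assigned to no single gene (13.1% to 20.9%) were left out, and 10734234 to 13649310 gene counts remained per library. The authors also deposited a signal table in which each count is divided by 1 size factor per library. It gave the gene symbols, and its columns of the authors' own fold changes and p-values were not used. The submitters' processing notes name the build mm10, and the aligner and annotation are not given in the sources used here.

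Counts were normalized by TMM, filtered by group with filterByExpr and tested with the quasi-likelihood test of edgeR 4.0.16 (R 4.3.3) without covariates. The Benjamini-Hochberg adjustment ran over 13904 genes, with calls at an adjusted p under 0.05. CPM are on the TMM scale. Standard errors were taken from the log2 fold change and the F statistic. The study's methods name limma. Limma 3.58.1 (voom, and trend with a prior count of 2) and DESeq2 1.42.0 were alternatives, beside other normalizations, filters on low counts (none, or at least 10 counts in every library), thinning, a replicate block and each library left out. The code was tested on simulated data. Coordinates and exon lengths come from GENCODE M21 (GRCm38), matched for 47310 of 47729 genes by identifier, and promoter windows from RefSeq, which matched 6 of the 7 symbols.

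The members, pathway lists, marker lists and alternatives were chosen with earlier results of these data known. The genes named in the text are all members, Cdk4, Cdk6, Cdk2, Ccnd2, Ccnd3, Mki67 and Foxp3, up to 4 called genes a direction of each list by size of change, and the 3 genes most like each called member. Some genes and sequences that this rule covers are not reported here. Ccnd1, Trp53, Mdm2, Skp2, Lmnb1, Il6 and Mtap were named after their values were seen. Replicates of 1 age differed by more than sampling noise, at 8.16 to 165 chi-square units per degree of freedom for pairs of libraries. Intervals of counts cover counting error only.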

Additional observations from a re-analysis of the deposited data

How the results depend on the processing

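Cdkn2a kept its direction in all 17 alternatives in which it could be tested and its call in 16 (log2 fold change 2.06 to 2.75), and Cdkn2b in 17 and 15 (2.05 to 2.93). Neither had 10 counts in each of the 7 libraries, the strictest filter. Without each library in turn Cdkn2a ran from 2.39 to 2.75 and Cdkn2b from 2.12 to 2.91, the latter losing its call without aged replicate 3. Cdkn1a was positive in all 18 and called in 10, and lost its call with library size only (0.66, adjusted p = 0.0863) and with no filter on low counts (0.70, adjusted p = 0.0715). Without each library it ran from 0.64 to 0.81. Cdkn2c turned to -0.042 with library size only, to -0.015 with GC content and gene length trends removed, and ran from -0.086 to 0.14 without each library. Cdkn1b ran from -0.066 to 0.29 and Cdkn1c from -0.25 to 0.029 without each library. The cause was not tested.

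With the replicate block, 292 genes were called (202 higher, 90 lower), and the log2 fold changes were 2.47 for Cdkn2a (adjusted p = 0.0641), 2.93 for Cdkn2b (adjusted p = 0.0554), 0.72 for Cdkn1a (adjusted p = 0.187) and 0.031 for Cdkn1c. Deviations of aged and young libraries with the same number had correlations of -0.0915, -0.292 and -0.138. The labels name no day or litter shared by libraries of the same number, and these correlations cannot tell whether one was shared. Without each library in turn, 1237 to 3058 genes were called (783 to 1603 higher and 448 to 1455 lower), the fewest without young replicate 4. A further threshold of 1 on the size of the log2 fold change left 1016 genes (757 higher, 259 lower). No scaling moved the median of all genes by over 0.1. Depth limits Cdkn2a, Cdkn2b and Cdkn1c, whose young libraries held 1 to 23 counts.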
